A study of Homo sapiens with 8 samples.

Results

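The genes described here encode 8 proteins of activator protein 1 (AP-1): the FOS family (FOS, FOSB, FOSL1, FOSL2), the JUN family (JUN, JUNB, JUND) and the JUN partner BATF3. They were taken by gene symbol from a table of 35394 genes, and all 8 were present and passed the filter on low counts. The cells were HCT116, an established human colorectal cancer line of epithelial origin whose genotype label is a ras mutation, in treated and control samples alike. For 24 h, 4 samples were exposed to PZH, the traditional Chinese medicine Pien Tze Huang, with a dose that the labels do not give. A further 4 samples were DMSO controls, whose label carries no time. All results come from this single line. Poly(A) RNA was sequenced, and nothing states that replicates came from separate cultures, so p-values measure only the spread between these samples, which may be technical.

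AP-1 is not a single protein but a set of dimers. FOS proteins do not pair with each other and bind DNA together with a JUN protein, whereas JUN proteins can also pair among themselves. BATF3 lacks the activation domains of FOS and competes for the same JUN partners. The dimers bind the TPA response element (TRE) and, with some partners, the cyclic AMP response element (CRE). FOS, FOSB, JUN and JUNB are immediate early genes, switched on within minutes by growth factors and stress through the kinases ERK, JNK and p38, while FOSL1 follows with a delay and is itself an AP-1 target in many carcinoma lines with active RAS.

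The stretches of DNA just before the start sites of 5 of these genes are shown first, with letters that AP-1 and CREB proteins can bind. Whether these letters relate to the changes described below was not tested. Each stretch is the 140 bases before the RefSeq start site on GRCh38.p14, read 5′ to 3′ along the gene's own strand. JUN is chr1:58784048-58784187 on the minus strand. FOS is chr14:75278688-75278827, FOSB is chr19:45467856-45467995, JUNB is chr19:12791346-12791485 and FOSL2 is chr2:28392718-28392857, all on the plus strand. Capitals mark the pentamer TGACG with which the CRE begins, the TRE-like octamer TGACATCA, and TATAAA.
JUN: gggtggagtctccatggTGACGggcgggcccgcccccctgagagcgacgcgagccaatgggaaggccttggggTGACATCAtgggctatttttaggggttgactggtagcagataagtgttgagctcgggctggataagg
FOS: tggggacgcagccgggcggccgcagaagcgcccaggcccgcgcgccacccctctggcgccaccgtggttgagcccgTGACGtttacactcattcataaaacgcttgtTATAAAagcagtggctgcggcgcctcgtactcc
FOSB: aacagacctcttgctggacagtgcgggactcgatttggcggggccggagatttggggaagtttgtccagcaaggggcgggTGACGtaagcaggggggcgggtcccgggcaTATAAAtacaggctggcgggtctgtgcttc
JUNB: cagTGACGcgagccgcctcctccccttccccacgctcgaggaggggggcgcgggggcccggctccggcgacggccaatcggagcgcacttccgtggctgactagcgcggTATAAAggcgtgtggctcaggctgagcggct
FOSL2: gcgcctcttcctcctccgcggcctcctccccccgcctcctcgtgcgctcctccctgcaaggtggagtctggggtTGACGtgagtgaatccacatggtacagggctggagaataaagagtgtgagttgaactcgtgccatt

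RefSeq promoters of 250 bases before to 50 bases after the start were found for 6 of the 8 genes; FOSL1 and BATF3 are named only. The motifs were searched on both strands, and a match is a description of the letters, not of binding. TGACG occurred in 6 of the 6 windows and in 24.6% of the 35116 promoters in the reference. Its first base lay 64 bases before the start in FOS, 60 in FOSB, 66 in FOSL2, 123 in JUN, 137 in JUNB and 200 in JUND. On the opposite strand, matches began 201 bases before the start in FOSL2, and 197 and 86 before it in JUND. The JUND match at 197 is no separate site, since it lies within the full CRE given below. In JUN the octamer TGACATCA began 67 bases before the start, and 2.61% of all promoters hold that octamer. The full CRE, TGACGTCA, which contains TGACG, was found in JUND only, 200 bases before the start, and in 1.85% of all promoters. The TRE, searched as TGANTCA, was found in FOSL2 only, from base 5 after the start, and in 7.71% of all promoters. TATAAA stood 33, 30 and 31 bases before the start in FOS, FOSB and JUNB and was present in 11.5% of all promoters. The CArG box, the site of serum response factor, was found in 0 of the 6 windows and in 1.29% of all promoters. Bases more than 250 before the start were not searched, so this does not show that a gene lacks such a site. Start sites differ between annotations: the outermost GENCODE 29 start lies 280 bases upstream of the RefSeq one for JUN, 410 for FOSL2, 54 for FOS and 1 for FOSB, and 10 bases downstream for JUNB.

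Total counts ran from 18144117 to 19917571 per library, so 3 counts, taken as the floor, equal 0.151 to 0.165 CPM (counts per megacount of a library). Levels below are CPM scaled by TMM, which corrects for composition between libraries. Replicates varied more with PZH: the biological coefficient of variation, the spread beyond counting error, was 8.02% there and 3.58% with DMSO. PZH differed from DMSO in most genes: of 15006 genes tested, 39.3% were called higher and 40.9% lower at an adjusted p under 0.05, 15.8% were called higher by at least 2-fold, and for 75.0% the groups did not overlap. The median log2 fold change of all genes was -0.02, and -0.28 without scaling factors, when 4473 genes were called higher and 7670 lower in place of 5901 and 6143. The epithelial label was checked with 10 markers, of which 8 passed the filter, 3 were called higher and 3 lower (2 and 6 without scaling factors), while CDX1 had no count in any library; their summed level without scaling factors was 4040 to 4100 CPM in DMSO and 2590 to 2940 CPM in PZH. Markers of immune, endothelial, erythroid and stromal cells, 14 in number, summed to 15.7 to 20.5 CPM in DMSO and 22.7 to 27.1 CPM in PZH. COL1A1 and ACTA2 were the only ones at 1 CPM or more on average, and these levels too are without scaling factors. Of the 14 markers, 4 passed the filter, of which 3 were called higher, and their part in the results below was not tested. In RNA from whole cultures, fewer cells of a kind and less RNA per cell cannot be told apart.

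Of the 8 AP-1 genes, 7 were called higher with PZH and FOSL2 was called lower, against the 39.3% and 40.9% of all genes given above. Of the 8, 6 rose by at least 2-fold, against 15.8% of all genes. JUN rose most, by 37.2-fold, followed by FOS (10.6-fold), FOSL1 (9.25-fold), FOSB (7.38-fold), JUNB (3.92-fold), JUND (2.60-fold) and BATF3 (1.52-fold). FOSL2 fell by 1.29-fold. The groups did not overlap in 8 of 8 genes, where 75.0% of all genes did the same.

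**Figure D1:**
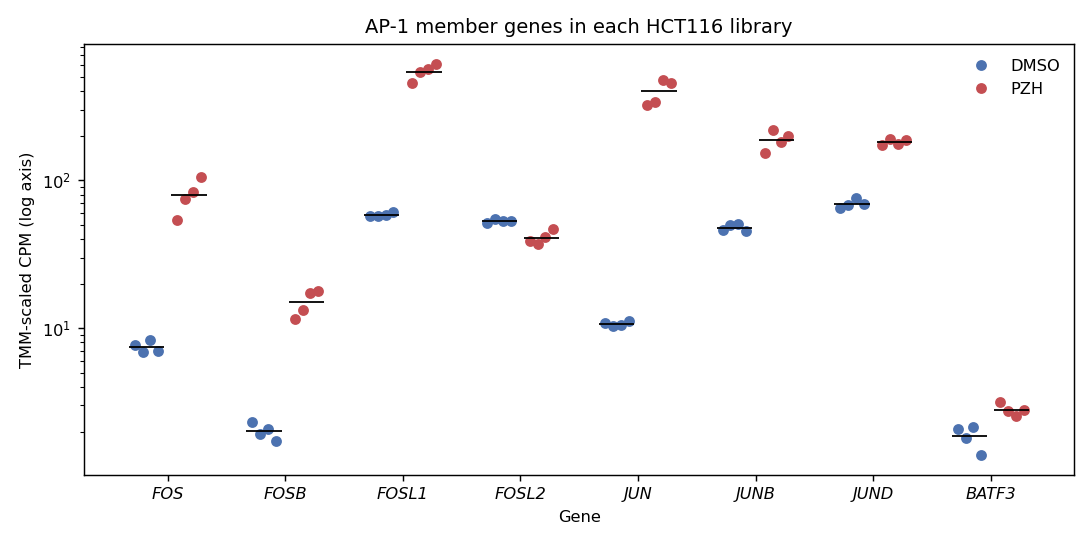
TMM-scaled CPM on a log axis of the 8 AP-1 genes, with 1 point per library (4 DMSO in blue, 4 PZH in red) and a line at each group mean. The PZH points lie above the DMSO points in 7 genes and below them in FOSL2.

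FOS, the founding member of the family and the classic immediate early gene, was scarce in control cells. It stood at 7.75, 6.90, 8.28 and 7.02 CPM in DMSO replicates 1 to 4 and at 53.8, 74.9, 83.5 and 104.9 CPM in PZH replicates 1 to 4. The lowest PZH library lay well above the highest control, but the highest was nearly double the lowest within the PZH group. On the log2 scale the rise was 3.40 ± 0.15 (standard error, adjusted p = 1.08e-15). The coefficient of variation of FOS was 26.7% among PZH libraries, the widest of the 8 genes, where counting alone gives 2.74%. Among DMSO libraries it was 8.65%, against 7.90% from counting.

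FOSB, a close relative of FOS and also an immediate early gene, had few counts in control cells. There were 51, 41, 45 and 36 in the DMSO libraries and 205, 224, 285 and 296 in the PZH libraries. In CPM this was 2.33, 1.94, 2.09 and 1.72 against 11.6, 13.2, 17.2 and 17.9. PZH replicates 3 and 4 were the highest and all 4 exceeded every control. The log2 fold change was 2.88 ± 0.16 (adjusted p = 1.21e-13).

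FOSL1 encodes FRA-1, which lacks the strong activation domain of FOS and is linked to invasive growth in carcinomas. Its levels were 57.4, 57.2, 58.3 and 61.4 CPM in DMSO and 452.6, 539.8, 561.1 and 614.1 CPM in PZH. Here the controls lay within a few CPM of each other and the treated libraries formed a separate group far above. FOSL1 rose by a log2 fold change of 3.21 ± 0.073 (adjusted p = 1.13e-20).

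FOSL2, which encodes FRA-2, went the other way. It stood at 51.1, 54.6, 52.7 and 52.9 CPM in DMSO and at 38.9, 37.1, 41.2 and 46.5 CPM in PZH. Every PZH library lay below every control, with replicate 4 the nearest. The log2 fold change was -0.37 ± 0.063 (adjusted p = 1.39e-05), and it was -0.63 without scaling factors. It was the only one of the 8 genes to fall.

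JUN, the main target of the JNK kinases and a common partner of FOS, changed most. Its levels were 10.9, 10.3, 10.5 and 11.2 CPM in DMSO and 324.7, 339.0, 471.9 and 456.4 CPM in PZH. The treated libraries fell into a lower pair, replicates 1 and 2, and a higher pair, replicates 3 and 4, each far above all controls. JUN rose by a log2 fold change of 5.22 ± 0.11 (adjusted p = 4.98e-21), which placed JUN at rank 49 of the 15006 genes tested when ordered from the largest rise. FOS stood at rank 185, FOSL1 at 221 and FOSB at 269.

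JUNB, a weaker activator that can oppose JUN, stood at 46.0, 49.9, 50.5 and 45.1 CPM in DMSO and at 152.2, 218.5, 180.6 and 199.5 CPM in PZH. All treated libraries were higher, and here replicate 2 was the highest, unlike in FOS and JUN. The log2 fold change was 1.97 ± 0.079 (adjusted p = 2.99e-16). GENCODE 29 places exons of HOOK2 on the opposite strand over 14.2% of the bases of JUNB, and whether counting used strand was not stated, so part of the JUNB value is uncertain. HOOK2, looked up for this overlap, had 33.4 ± 1.94 CPM in DMSO and 30.9 ± 2.99 CPM in PZH (mean ± SD, n = 4 each) and did not pass the test (adjusted p = 0.167).

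JUND, which many resting cells keep at a steady level, stood at 65.2, 68.4, 75.8 and 68.7 CPM in DMSO and at 172.9, 188.4, 174.6 and 187.8 CPM in PZH. Its PZH libraries were the most alike of the 8 genes, with a coefficient of variation of 4.58% against 1.81% from counting. JUND rose by a log2 fold change of 1.38 ± 0.052 (adjusted p = 8.74e-17).

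BATF3, best known from dendritic cells, had few counts: 46, 38, 46 and 29 in the DMSO libraries and 56, 47, 42 and 46 in the PZH libraries. After scaling this was 2.097, 1.796, 2.139 and 1.384 CPM against 3.165, 2.773, 2.534 and 2.783. The raw counts overlapped and the scaled levels did not. The log2 fold change was 0.60 ± 0.21 (adjusted p = 0.0116), with a 95% interval of 0.19 to 1.01. This call was lost without scaling factors (0.34, adjusted p = 0.140) and without DMSO replicate 4 (0.48, adjusted p = 0.0518).

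**Figure D2:**
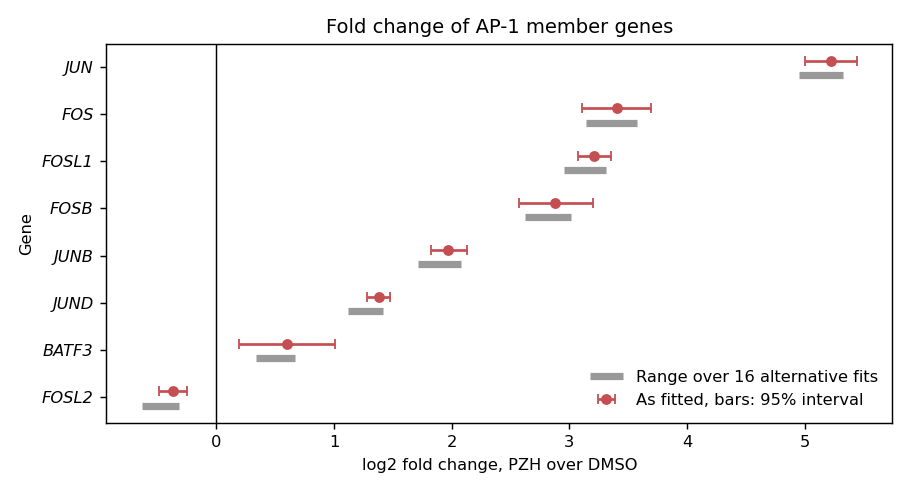
Log2 fold change of PZH over DMSO for the 8 AP-1 genes, as fitted (red points, bars of the 95% interval) and the range over 16 alternative fits (grey bars). JUN stands apart at 5.22 and FOSL2 is the only gene left of 0; the BATF3 range reaches down to 0.34.

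To compare the genes with each other, levels were divided by the length of the longest protein-coding transcript in the GENCODE 29 basic set, which gives CPM per kb. In control cells the order of levels was JUND (37.3 ± 2.41 CPM per kb, mean ± SD, n = 4), FOSL1 (35.1 ± 1.16), JUNB (26.3 ± 1.48), FOSL2 (7.88 ± 0.219), FOS (3.47 ± 0.300), JUN (3.02 ± 0.116), BATF3 (1.89 ± 0.356) and FOSB (0.535 ± 0.0677). The values of JUND and FOSL1 overlapped between libraries and those of the other neighbours did not. With PZH the order was FOSL1 (324.7 ± 40.3), JUN (112 ± 21.7), JUNB (103 ± 15.5), JUND (97.1 ± 4.45), FOS (36.7 ± 9.80), FOSL2 (6.10 ± 0.608), FOSB (3.97 ± 0.811) and BATF3 (2.87 ± 0.267). Here JUN and JUNB overlapped, as did JUNB and JUND, and FOSB and BATF3. With the length of all annotated exons in place of the transcript, JUN came before FOS in control cells, at 3.02 and 2.31 CPM per kb, and the order in PZH was the same.

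The make-up of each family shifted, a measure that does not depend on scaling between libraries. JUN made up 4.86%, 4.32%, 4.14% and 4.87% of the JUN family's summed level per kb in DMSO and 34.2%, 30.2%, 40.9% and 37.99% in PZH. The share of JUND went from 56.0 ± 1.14% to 31.2 ± 2.61%, and that of JUNB from 39.5 ± 1.17% to 32.9 ± 3.38% (mean ± SD, n = 4 each). JUN thus went from the smallest share to the largest in PZH replicates 3 and 4, whereas JUNB held the largest in replicate 2 and JUND in replicate 1. None of these 3 shares overlapped between groups. While their shares fell, JUND and JUNB rose in level, from 37.3 to 97.1 and from 26.3 to 103 CPM per kb on average. The level of JUN was 0.0726 to 0.0880 of that of JUND per kb in DMSO libraries and 0.947 to 1.42 of it in PZH libraries.

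In the FOS family, FOSL1 held the largest share in every library. It made up 74.4%, 74.3%, 74.1% and 76.0% of the summed level per kb in DMSO and 88.9%, 88.1%, 87.2% and 85.9% in PZH. The share of FOSL2 fell back from 16.8 ± 0.606% to 1.65 ± 0.172%. Its own level went only from 7.88 to 6.10 CPM per kb on average, while the family sum rose. FOS had 7.39 ± 0.672% and 9.75 ± 1.32%, and FOSB 1.14 ± 0.162% and 1.06 ± 0.102%, where the FOSB shares overlapped between groups. The ratio of FOSL1 to FOSL2 was 4.21 to 4.66 in DMSO and 46.8 to 58.6 in PZH, whereas the ratio of FOS to FOSL1 overlapped between groups (0.0989 ± 0.00986 and 0.112 ± 0.0167). Summed per kb, the FOS family stood at 0.707 ± 0.0390 of the JUN family in DMSO and at 1.19 ± 0.0545 of it in PZH. These ratios depend on the length used. With the length of all annotated exons, levels of the FOS family genes are lower and those of the JUN family genes the same, so both ratios are lower. FOSL1 then stood at 31.05 CPM per kb in DMSO and 287.2 in PZH. Summed levels went from 47.0 ± 1.05 to 371.5 ± 51.2 CPM per kb for the FOS family and from 66.6 ± 3.51 to 312.7 ± 31.1 for the JUN family. These are transcript levels; dimers were not measured.

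**Figure D3:**
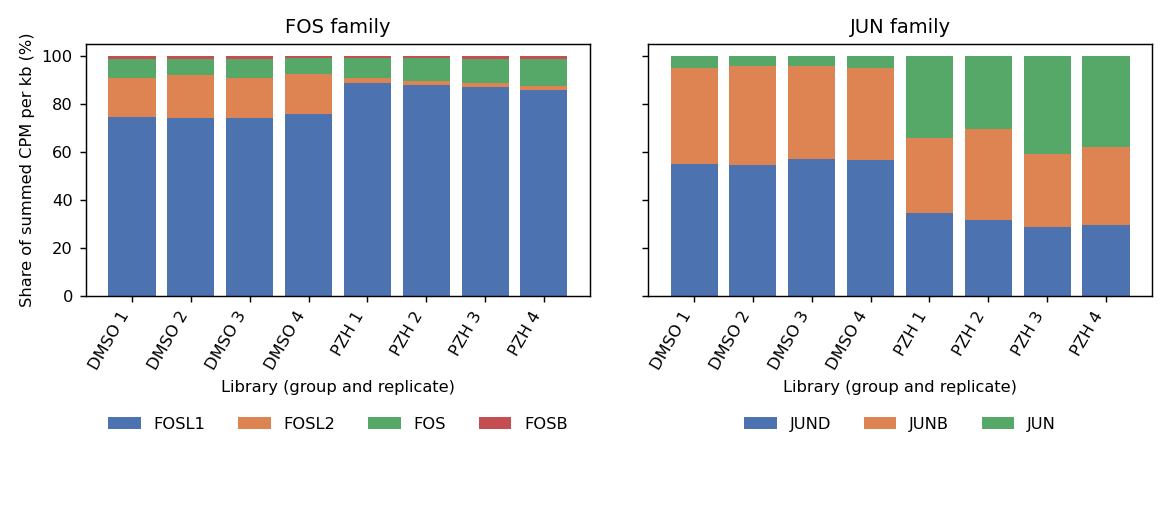
Share (%) of each gene in the summed CPM per kb of its family, with 1 stacked bar per library, DMSO on the left and PZH on the right of each panel. JUN (green, right panel) goes from at most 4.87% in DMSO to at least 30.2% in PZH. The share of FOSL2 (orange, left panel) shrinks from 16.8 ± 0.606% to 1.65 ± 0.172% as the family sum rises.

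The genes are spread over the genome and their transcripts differ in build. In GENCODE 29 (GRCh38), JUN lies at chr1:58780788-58784327 and BATF3 at chr1:212686418-212699985 on the minus strand, FOSL2 at chr2:28392448-28417312, FOSL1 at chr11:65892049-65900573 on the minus strand and FOS at chr14:75278774-75282230. JUNB (chr19:12791496-12793315), JUND (chr19:18279760-18281622, minus strand) and FOSB (chr19:45467995-45475179) share chromosome 19. JUN, JUNB and JUND have a single exon in the transcript used, FOS, FOSB, FOSL1 and FOSL2 have 4, and BATF3 has 3. The pentamer ATTTA, the core of the AU-rich elements that mark many short-lived mRNAs, occurred 5 times in the 3′ untranslated region of FOS, 3 times each in FOSB and JUN, 9 times in the much longer one of FOSL2, 2 times in JUNB and 1 time each in FOSL1, JUND and BATF3. The median over 12351 tested genes was 2, and 26.9% of them had none. Per kb the count was 6.18 in FOS and between 1.38 and 3.98 in the other 7 genes. A value per kb over all genes was not computed, so whether these are unusual is not known. FOSL1, which rose, and FOSL2, which fell, had 1.49 and 1.85 per kb.

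Other basic leucine zipper (bZIP) genes whose proteins can pair with FOS or JUN were mostly higher. Of 14 listed, 11 were tested, 8 rose and 0 fell (0 also at an unadjusted p under 0.05 and by DESeq2 and limma-voom), with a median log2 fold change of 1.47 against -0.02 for all genes. The share called higher was 72.7%, against 39.3% of all genes, and the share called lower was 0%, against 40.9%. This list and the lists below were chosen with earlier results of these data known. Their shares therefore describe the lists and are no independent comparison with all genes. ATF3, a stress-induced partner of JUN, went from 12.7 ± 1.48 to 903.2 ± 82.7 CPM, a rise of 71.0-fold (adjusted p = 7.30e-24). DDIT3 (CHOP), which forms dimers with C/EBP proteins and can tether to AP-1, rose 88.9-fold from 4.36 to 387 CPM on average. The small MAF proteins lack an activation domain; MAFF rose 9.74-fold and MAFG 4.37-fold. JDP2, a repressor that pairs with JUN, was called higher as well, at 10.2 ± 1.57 and 28.3 ± 1.70 CPM. BATF had no count in any library, and BATF2, at 1.60 ± 0.358 and 2.13 ± 0.741 CPM, did not pass the test (adjusted p = 0.167). JDP2, BATF and BATF2 were named after their values were seen.

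For the kinases that signal to AP-1, the shares called in each direction were near those of all genes. Of 12 tested genes of the JNK pathway, 4 rose (33.3%, against 39.3% of all genes) and 5 fell (41.7%, against 40.9%), with a median log2 fold change of -0.07; without scaling factors 2 rose and 8 fell. MAPK8, which encodes JNK1, rose 1.48-fold from 53.0 ± 2.02 to 78.3 ± 3.72 CPM, while MAPK9, which encodes JNK2, fell 1.77-fold from 55.6 ± 1.14 to 31.3 ± 2.89 CPM. The scaffold MAPK8IP3 rose 2.21-fold and the upstream kinase MAP3K11 fell 1.71-fold. Of 17 tested genes of the ERK and p38 pathways, 6 rose (35.3%) and 8 fell (47.1%), with a median of -0.11. RPS6KA1 (RSK1), a kinase activated by ERK, fell 1.98-fold, the p38 isoform MAPK12 fell 1.91-fold, and the p38 isoform MAPK13 and the p38-activated kinase MAPKAPK2 rose 1.72-fold and 1.71-fold. Kinase activity was not measured.

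Genes for factors that act at FOS and JUN promoters rose in 11 of 12 tested cases (91.7%, against 39.3% of all genes), with a median log2 fold change of 0.53; without scaling factors 9 rose. The ETS factor ELK3, which binds next to serum response factor, rose 2.76-fold from 85.8 ± 2.13 to 236 ± 9.81 CPM. MEF2D, which binds an AT-rich site in the JUN promoter, rose 3.19-fold, and CREM, of the CREB family, rose 3.44-fold. The 1 gene that fell was MRTFB, listed under its older name MKL2, a coactivator of serum response factor, which went from 83.0 ± 1.25 to 36.0 ± 2.71 CPM, 2.30-fold lower.

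Of 12 genes that govern the turnover of AP-1 proteins and mRNAs, 5 were called higher (41.7%) and 6 lower (50%), near the 39.3% and 40.9% of all genes, with a median log2 fold change of -0.19. ZFP36 (tristetraprolin), which binds AU-rich elements and speeds decay of such mRNAs, rose 10.8-fold from 29.7 ± 2.12 to 322 ± 50.2 CPM. Its relative ZFP36L2 fell 2.47-fold. The AU-rich element binding proteins HNRNPD (AUF1) and KHSRP fell 3.59-fold and 2.11-fold, from 600.0 ± 17.5 to 167 ± 10.4 CPM and from 417 ± 12.2 to 197.5 ± 5.39 CPM. FBXW7, the ubiquitin ligase subunit that marks JUN for degradation, rose 1.63-fold.

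Genes known as AP-1 targets in other systems, a list also chosen with earlier results of these data known, were higher in most cases. Of 30 listed, 24 were tested, 17 rose (70.8%, against 39.3% of all genes) and 5 fell (20.8%, against 40.9%), with a median log2 fold change of 2.21; without scaling factors 16 rose and 7 fell. MMP1 and MMP10 had few counts in DMSO, but their interval bounds nearest to no change still lay above this median. Setting both genes to these bounds therefore could not change the median. HMOX1, also an NRF2 target, rose 22.6-fold. The growth arrest gene GADD45A rose 14.7-fold from 35.5 ± 3.39 to 524 ± 27.9 CPM. The matrix protease MMP10 had 1 count in DMSO and 106 in PZH, summed over 4 libraries each. Scaled by library totals and TMM factors, this was a ratio of 134 (95% exact binomial interval 23.5 to 5340). Against the majority, cyclin CCND1 fell 3.88-fold and the sphingosine kinase SPHK1 fell 2.15-fold. Among the 6 targets under the filter, IL6 had no count in any library, and the stromelysin MMP3 had 0 counts in DMSO and 3 in PZH. MMP1 and MMP10 were named after their values were seen. Binding of AP-1 to these genes was not measured.

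**Figure D4:**
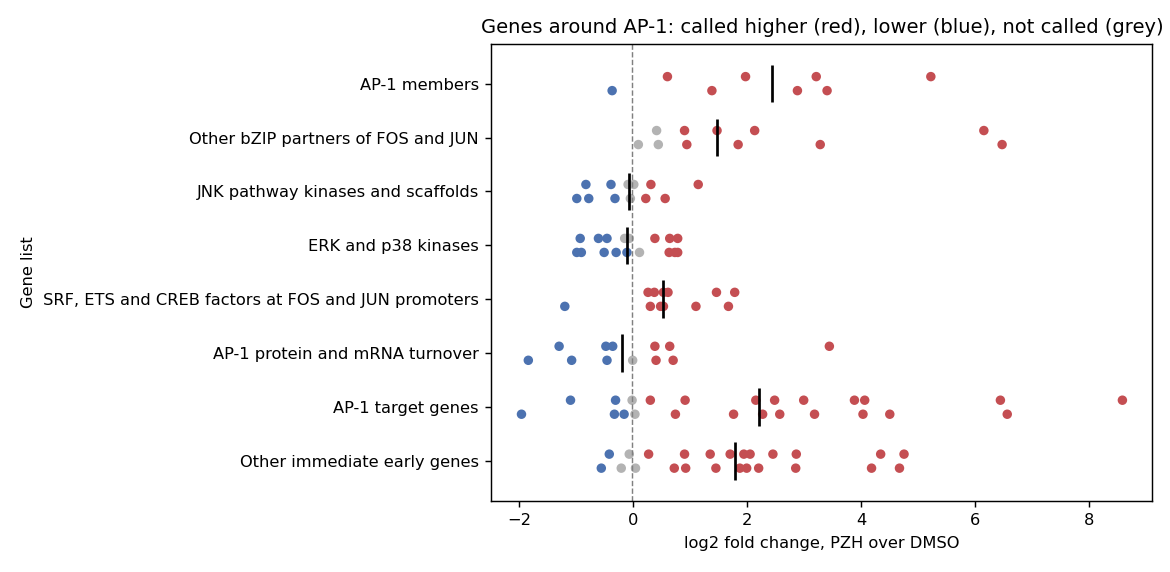
Log2 fold change of PZH over DMSO for each tested gene of 8 lists, coloured by call (red higher, blue lower, grey not called), with a black bar at the list median and a dashed line at the median of all genes, -0.02. AP-1 members, their bZIP partners, AP-1 targets and other immediate early genes have medians of 2.43, 1.47, 2.21 and 1.78, and both kinase lists lie near 0; the rightmost target, MMP1, rests on 2 counts in DMSO, so its fitted position depends on the prior count.

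Other immediate early genes were higher in 19 of 24 tested cases (79.2%, against 39.3% of all genes) and lower in 2 (8.33%, against 40.9%). Their median log2 fold change was 1.78, and without scaling factors 17 were higher and 4 lower. Many such genes can answer the same signals, but which signals acted here was not tested. The phosphatase subunit PPP1R15A rose 27.0-fold, and DUSP1 and DUSP5, phosphatases that switch off MAP kinases, rose 25.5-fold and 18.1-fold. The zinc finger factor EGR1 rose 20.2-fold from 73.5 ± 7.66 to 1487 ± 252 CPM. The nuclear receptor NR4A2 fell 1.47-fold and KLF2 fell 1.34-fold.

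The genes whose levels followed JUN, FOS and FOSL1 most closely were taken as those with the highest Pearson correlation of log2 CPM over the 8 libraries, among 10897 other genes. The 8 points share the treatment contrast, so many genes come close: 1378 had a correlation above 0.99 with JUN, 654 with FOS and 1340 with FOSL1. For JUN they were SLC3A2, a subunit of amino acid transporters, COPB2 of the COPI vesicle coat and the ER chaperone CANX. For FOS they were the bromodomain gene BRD2, DCUN1D3 and TSC22D2. For FOSL1 they were the catenin CTNNA1, the glycyl-tRNA synthetase GARS and the heparan sulfate proteoglycan SDC4. The correlations of these 9 ran from 0.99858 to 0.99985. Their fold changes were smaller than those of the gene they followed, from 2.05-fold in BRD2 to 6.52-fold in SLC3A2, since the correlation reads the shape of the profile and not its size.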

How the data were processed

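The authors deposited 1 table of raw counts, whole numbers by gene symbol, in which 0 columns belonged to no sample. The submitters' processing notes list, with no role, DESeq 1.28.0, StringTie 1.3.3b, HISAT2 2.1.0 and FastQC 0.11.5; a genome build, annotation or strand setting was not given in the sources used here. Rows whose names a spreadsheet had turned into dates (25, with 0.178% to 0.220% of counts) were kept and not named. Floors and the exact binomial intervals of count ratios cover counting error only.

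Genes passing edgeR's filterByExpr (minimum count 10, minimum total 15) were fitted with TMM factors and the quasi-likelihood F test, a two-sided test with group alone in the model, and adjusted by Benjamini-Hochberg over all genes (threshold 0.05). Standard errors are the absolute log2 fold change over the square root of F, and 95% intervals of a log2 fold change use the normal approximation. Tools were Python 3.11.15, R 4.3.3, DESeq2 1.42.0, limma 3.58.1 and edgeR 4.0.16; the fit was tested on simulated counts. The members and the 10 gene lists (157 entries) were chosen with earlier results of these data known. MRTFA was not matched in the table; CCN1, CCN2 and MRTFB were matched by RefSeq synonyms. Named by rule were the members, up to 4 called genes per list with the smallest p, up to 2 against the majority, and for JUN, FOS and FOSL1 the 3 genes with the highest correlation at a mean log2 CPM of at least 2 (prior count 2). Some genes that this rule names are not reported here. Promoters are RefSeq's (GRCh38.p14); lengths, exons and 3′ regions are GENCODE 29's (GRCh38). Alternatives were other scalings, filters and tools, a threshold of 0.01, omission of each library in turn and a replicate block.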

Additional observations from a re-analysis of the deposited data

Results flagged for a closer look

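Within each group of 4 libraries, a single library was marked where its gap to the nearest other exceeded Dixon's 95% critical value. Of 134 such groups, over the named genes and the family shares and ratios, 3 (2.24%) were marked, where chance marks about 1 in 20. None of the 8 AP-1 genes, their shares or their ratios was among them. HNRNPD stood at 626 CPM in DMSO replicate 3, against 589 to 593 CPM in the other DMSO libraries. HMOX1 stood at 499 CPM in PZH replicate 4, against 477 to 479 CPM in the other PZH libraries. CTNNA1 stood at 440 CPM in DMSO replicate 4, against 427 to 429 CPM in the other DMSO libraries.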

How the results depend on the processing

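Over 16 alternative fits, JUN, FOS, FOSL1, FOSB, JUNB and JUND were called higher and FOSL2 lower each time, with log2 fold changes of 4.95 to 5.32, 3.14 to 3.57, 2.95 to 3.31, 2.62 to 3.01, 1.71 to 2.08, 1.12 to 1.42 and -0.63 to -0.32. BATF3 kept its direction but not its call: it was 0.34 without scaling factors (adjusted p = 0.140), 0.60 with an adjusted p of 0.0116 where the threshold was 0.01, and 0.48 to 0.67 on leaving out each library, with the call lost without DMSO replicate 4 (adjusted p = 0.0518); with 29 to 56 counts per library its depth limits the precision. Without scaling factors the JNK pathway list had 2 genes higher and 8 lower in place of 4 and 5, and the other immediate early genes had 4 lower in place of 2, and the epithelial markers had 6 lower in place of 3; that setting lowers all log2 fold changes together. Other counts of calls in the 8 lists of AP-1 members and related genes stayed within 1.5 times; the marker lists were recounted only without scaling factors. Whether the replicate numbers pair the samples was not settled. Deviations of same-numbered libraries had correlations of 0.00493 to 0.108, and those of differently numbered ones had -0.0891 to 0.0441. DMSO replicates 1, 2 and 3 each correlated best with the same-numbered PZH library, at 0.0571, 0.108 and 0.00493. DMSO replicate 4 correlated best with PZH replicate 3, at 0.0139 against 0.00934 with PZH replicate 4. With the replicate number as a block, 5889 genes were called higher and 6125 lower in place of 5901 and 6143, and no call of an AP-1 gene changed.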
